A study of Caenorhabditis elegans with 6 samples.

Results

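The comparison set whole Caenorhabditis elegans worms fed cav-1 RNAi bacteria against worms fed daf-2 RNAi bacteria. It used 4 of the 6 libraries of the series, 2 per treatment, and every gene with a count in at least 1 of those 4, which were 20429 of the 46254 genes with values. All worms were of the strain CF512, which is sterile at 25 °C, so the animals carried that background under either treatment. Eggs were placed on the RNAi bacteria and held at 25 °C for 48 h, and the worms were collected on day 1 of adulthood. The third group of the series, fed bacteria with the empty vector, is given beside the others as a background level and served to estimate the spread. The experiment was done as 2 biological repeats, each with 1 sample of every kind, and the comparison was paired by repeat.

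The protein product of daf-2 is the only insulin/IGF-1 receptor of the worm. When it signals, a kinase cascade keeps the FOXO transcription factor DAF-16 out of the nucleus, and when it is reduced DAF-16 enters the nucleus, where stress defence and metabolic genes are induced and worms live longer. The gene cav-1 encodes a caveolin, a membrane protein that binds cholesterol and shapes small pits of the plasma membrane called caveolae. Both treatments act through RNA interference, in which double-stranded RNA from the food bacteria leads to the breakdown of the matching messenger RNA in most tissues of the worm.

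The libraries held between 27999017 and 32886440 counts for the 4 RNAi samples, and levels are given as CPM, read counts normalised to library size. Each difference is cav-1 RNAi minus daf-2 RNAi on the log2(CPM + 1) scale, with its standard error from limma over n = 2 per group, and is called when the adjusted p is under 0.05. That scale understates the change of genes with low levels. The p-values measure the spread left among all 6 libraries once the repeat effect is removed, drawn towards a trend over genes. They do not measure the whole spread between samples of a group. In whole worms, fewer cells of a type and less RNA per cell cannot be told apart.

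The targeted genes were examined first. cav-1, at chromosome IV 9772510 to 9773559 in WBcel235, stood at 178 and 184 CPM with empty vector, at 42.7 and 21.2 CPM in the daf-2 RNAi libraries and at 6.13 and 1.84 CPM in the cav-1 RNAi libraries (repeats 1 and 2). It was lowest in both cav-1 RNAi libraries, and the difference from daf-2 RNAi was -2.79 (SE 0.33, limma adjusted p = 0.00106). Both daf-2 RNAi libraries also lay below both empty vector libraries for cav-1, so the comparison sets 2 lowered levels of this gene against each other. daf-2, at chromosome III 2994514 to 3040846, stood at 42.6 and 188 CPM with empty vector, at 26.4 and 30.6 CPM in the daf-2 RNAi libraries and at 57.9 and 214 CPM in the cav-1 RNAi libraries. The daf-2 level was lowest under daf-2 RNAi in each repeat, with a difference of 1.94 (SE 0.39, limma adjusted p = 0.0123), but the gap was smaller in repeat 1 (log2 difference 1.11) than in repeat 2 (2.76). For cav-2, the second caveolin gene, the libraries stood at 7.28 and 4.24 CPM in the daf-2 RNAi libraries and at 5.598 and 4.76 CPM in the cav-1 RNAi libraries, and its difference of -0.10 (SE 0.30) was not called (limma adjusted p = 0.835).

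Of 14378 genes tested, 1526 (10.6%) were called, and more of them were lower than higher under cav-1 RNAi: 988 genes (6.87%) were lower and 538 (3.74%) were higher. All 1526 had the same sign in both repeats, as did 78.9% of all tested genes. The median difference among the calls was -1.19 for the lower genes and 1.08 for the higher ones, against -0.01 over all tested genes. A difference of at least 1 on the log2 scale was reached by 708 of the lower and 348 of the higher genes. The number of calls depended on pairing by repeat: without the replicate block limma called 0 genes, with 827 at an unadjusted p under 0.05 against 5219 with the block. It also depended on single libraries. There were 70 calls without repeat 1 of cav-1 RNAi, 4200 without repeat 2, 3078 and 3057 without empty vector repeats 1 and 2, 998 without daf-2 RNAi repeat 1 and 1028 without daf-2 RNAi repeat 2. The share of calls that were higher, 35.3%, was 61.5% with median-of-ratios size factors and 52.3% with TMM factors taken from all genes, so which direction holds more calls depends on the scaling. Every one of the 1526 genes kept its sign in all of those fits. As each was picked by a call and had the same sign in both repeats, this was largely fixed in advance.

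**Figure D1:**
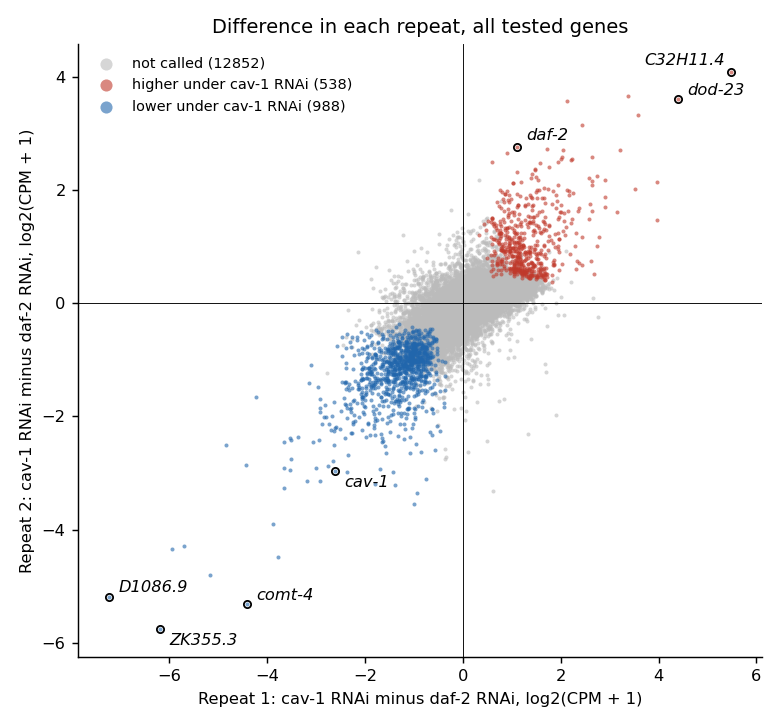
The difference between cav-1 RNAi and daf-2 RNAi in repeat 1 (horizontal) is plotted against that in repeat 2 (vertical) for all 14378 tested genes, both as log2(CPM + 1), with called genes in colour. The 538 genes called higher and the 988 called lower have the same sign in both repeats, with C32H11.4 and D1086.9 at the far ends.

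The 12 genes that were lower by most under cav-1 RNAi, restricted to calls averaging 5 CPM or more in the 4 libraries, had differences from -6.21 to -3.28. The protein-coding gene D1086.9 stood at 1.76 and 2.69 CPM with empty vector, at 196 and 44.9 CPM in the daf-2 RNAi libraries and at 0.326 and 0.252 CPM in the cav-1 RNAi libraries, a difference of -6.21 (SE 0.48, limma adjusted p = 9.36e-05). Its level was thus high in the 2 daf-2 RNAi libraries and low in the other 4. ZK355.3 stood at 192 and 64.7 CPM in the daf-2 RNAi libraries and at 1.66 and 0.216 CPM in the cav-1 RNAi libraries (-5.97, SE 0.27, limma adjusted p = 4.03e-06), with 5.04 and 1.55 CPM on empty vector. H39E23.3 stood at 196 and 184 CPM and 2.22 and 8.08 CPM in the same order (-5.14, SE 0.35). Of these 12 genes 4 form 2 neighbouring pairs on the WBcel235 genome. D1086.9 (chromosome V 14104270 to 14106330) and H39E23.3 (14107811 to 14110051) lie on the same strand with 1480 bases between them, and each is annotated with a single exon. ZK355.3 (chromosome II 2927017 to 2927633) and ZK355.8 (2927804 to 2928141) lie 170 bases apart on opposite strands, and ZK355.8 stood at 78.1 and 37.1 CPM in the daf-2 RNAi libraries and at 1.21 and 0.361 CPM in the cav-1 RNAi libraries. The strand mode of the authors' counting is not given in the sources used here, so reads from such close neighbours were not separated further.

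The named families among these leading genes were varied. comt-4, of the catechol-O-methyltransferase family, stood at 367 and 137 CPM in the daf-2 RNAi libraries and at 16.44 and 2.49 CPM in the cav-1 RNAi libraries, against 46.9 and 26.1 CPM with empty vector (-4.86, SE 0.33, limma adjusted p = 3.66e-05). dao-6, a gene known from dauer larvae and ageing adults, stood at 82.3 and 33.3 CPM and 4.68 and 1.298 CPM (-3.89, SE 0.26). The C-type lectin gene clec-76 stood at 17.6 and 14.8 CPM and 0.474 and 0.649 CPM (-3.46, SE 0.24). The treatments did not overlap for any of the 3 genes, as in 893 of the 988 genes called lower. The remaining genes of the 12 were Y51B9A.8, clx-1, F35E8.6, the C-type lectin gene clec-61 and gst-3, a glutathione S-transferase. In all 12, both daf-2 RNAi libraries were above both empty vector libraries, and in 10 both cav-1 RNAi libraries were below them. The 12 were picked by these same RNAi libraries, which favours that order, and its share over all genes was not counted.

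The 12 genes that were higher by most ranged from 2.55 to 4.79. C32H11.4, which belongs to a family with CUB-like domains that responds to pathogens, stood at 0.752 and 2.18 CPM in the daf-2 RNAi libraries and at 77.5 and 53.1 CPM in the cav-1 RNAi libraries, against 83.6 and 103 CPM with empty vector. Its level was low in the 2 daf-2 RNAi libraries alone, and the difference was 4.79 (SE 0.33, limma adjusted p = 3.66e-05). dod-23, a gene named as lying downstream of DAF-16, stood at 5.74 and 5.38 CPM and 141 and 77.1 CPM (4.003, SE 0.26, limma adjusted p = 3.66e-05), and F08G5.6, another CUB-like gene, at 2.67 and 3.33 CPM and 42.98 and 42.3 CPM (3.45, SE 0.26). The C-type lectin gene clec-266 stood at 15.2 and 2.96 CPM and 168 and 49.3 CPM (3.52, SE 0.39). The others were dod-22, Y39B6A.1, the lysozyme gene ilys-5, the chitinase gene cht-1, the cuticlin-like gene cutl-16, ZK6.11, the cytochrome P450 gene cyp-35A3 and the O-acyltransferase gene oac-32. For ZK6.11 the daf-2 RNAi repeats were far apart, at 7.998 and 73.2 CPM, yet both were below the cav-1 RNAi libraries at 140.4 and 204 CPM. In all 12 both daf-2 RNAi libraries were below both empty vector libraries, while both cav-1 RNAi libraries lay above the empty vector pair in 1 gene and below it in 1. These 12 were also picked by the same RNAi libraries, which favours a low daf-2 RNAi level.

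**Figure D2:**
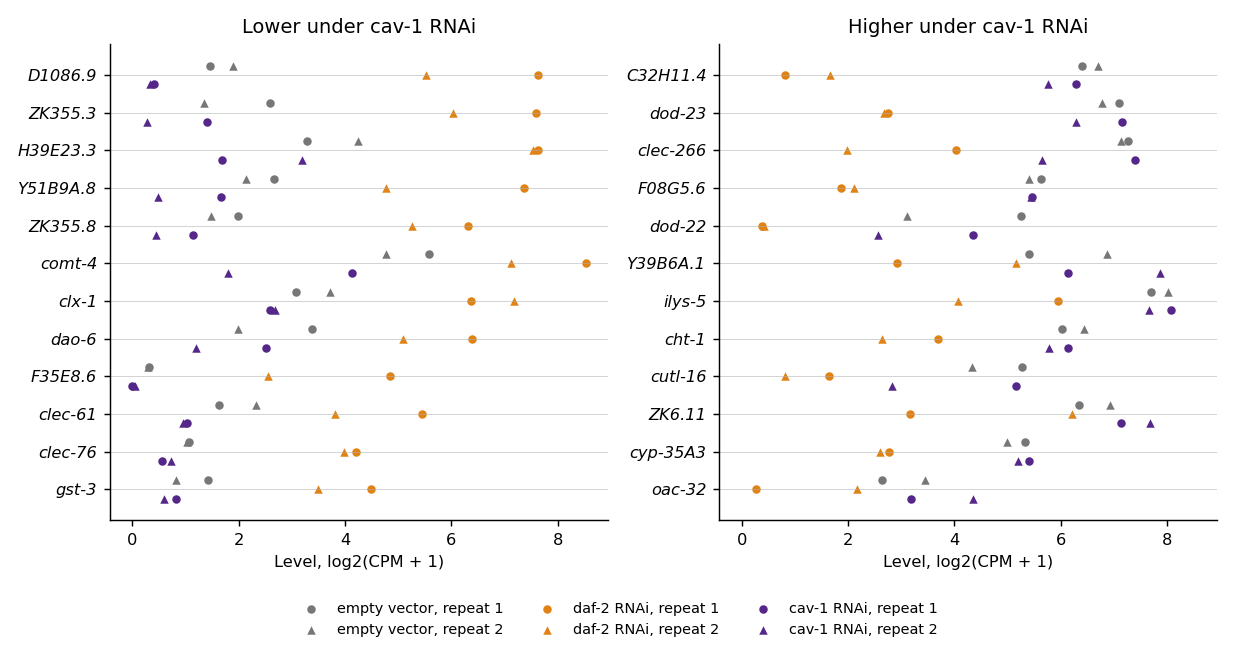
Levels, as log2(CPM + 1), of the 12 genes lower by most (left) and the 12 higher by most (right) are shown for every library, with a colour for each treatment, circles for repeat 1 and triangles for repeat 2. The daf-2 RNAi points stand apart from the other 2 groups in each of the 24 genes, from C32H11.4 at 4.79 to D1086.9 at -6.21. The genes were picked by the same daf-2 RNAi and cav-1 RNAi values.

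Genes known to respond to DAF-16 differed in opposite directions by class. Class 1 holds genes that rise when daf-2 is reduced in a DAF-16-dependent way, and 24 of its 30 tested members were lower under cav-1 RNAi than under daf-2 RNAi, 1 was higher and 5 were not called. Class 2 holds genes that fall when daf-2 is reduced, and 6 of 13 tested members were higher and 1 was lower. Over all tested genes 6.87% were lower and 3.74% higher. The median difference was -1.49 for class 1 and 0.34 for class 2. The class 2 median was not stable: it was 0.196 and 0.528 with pseudocounts of 2 and 0.5, 1.69 over the 11 genes averaging 5 CPM or more, and 0.64 and 0.663 without repeat 2 of daf-2 RNAi and of cav-1 RNAi. Against empty vector, with which both treatments share libraries here, the class 1 median was 0.85 for daf-2 RNAi and -0.54 for cav-1 RNAi. With repeat 1 of cav-1 RNAi left out, 6 class 1 genes were called lower and 1 class 2 gene higher, and with daf-2 RNAi repeat 1 left out, 15 class 1 genes were called lower.

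Among class 1 genes, dod-6 stood at 647 and 426 CPM in the daf-2 RNAi libraries and at 54.9 and 54.5 CPM in the cav-1 RNAi libraries, with 122 and 77.1 CPM on empty vector (-3.24, SE 0.24, limma adjusted p = 6.36e-05). mtl-1, a metallothionein, stood at 1736 and 607 CPM and 261 and 137 CPM (-2.43, SE 0.23, limma adjusted p = 0.000286). stdh-1, of the steroid dehydrogenase family, stood at 882 and 208 CPM and 171 and 50.5 CPM (-2.19, SE 0.22). For all 3 genes the treatments did not overlap, as in 893 of the 988 genes called lower. Both cav-1 RNAi libraries of dod-6 lay below both empty vector libraries. sod-3, the manganese superoxide dismutase gene widely used as a reporter of DAF-16, stood at 12.07 and 13.2 CPM on empty vector, at 53.5 and 60.4 CPM in the daf-2 RNAi libraries and at 15.3 and 13.7 CPM in the cav-1 RNAi libraries (-1.904, SE 0.25, limma adjusted p = 0.00192). The catalase gene ctl-2 stood at 154 and 139 CPM and 30.2 and 47.05 CPM (-1.93, SE 0.26), and the ferritin gene ftn-1 at 427 and 151 CPM and 80.2 and 43.4 CPM (-2.09, SE 0.25). Both cav-1 RNAi libraries lay just above both empty vector libraries for sod-3, while ctl-2 and ftn-1 under cav-1 RNAi were below both empty vector libraries. The 1 member that was higher was mtl-2, the second metallothionein, at 75.8 and 53.2 CPM and 148 and 98.7 CPM (0.92, SE 0.22, limma adjusted p = 0.0271).

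Among class 2 genes, dod-23 and dod-22 were among the 12 highest, and dod-22 stood at 0.308 and 0.333 CPM in the daf-2 RNAi libraries and at 19.5 and 4.903 CPM in the cav-1 RNAi libraries (3.06, SE 0.44, limma adjusted p = 0.00291). The gut peptide transporter gene pept-1 stood at 0.376 and 3.39 CPM and 6.13 and 13.2 CPM (2.03, SE 0.29, limma adjusted p = 0.00283). The yolk protein gene vit-5 stood at 9327 and 17436 CPM on empty vector, at 3204 and 1943 CPM in the daf-2 RNAi libraries and at 6033 and 12244 CPM in the cav-1 RNAi libraries (1.78, SE 0.38, limma adjusted p = 0.0157). vit-5 was the 1 of 6 vitellogenin genes that was called. The median of the 6 was -0.31 in repeat 1 and 0.86 in repeat 2, so the repeats pointed opposite ways for the family, and the closely similar sequences of vit-3, vit-4 and vit-5 make their separate counts uncertain. The lysozyme gene lys-8 was the 1 member that was lower, at 452 and 589 CPM and 222 and 335 CPM (-0.92, SE 0.21).

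**Figure D3:**
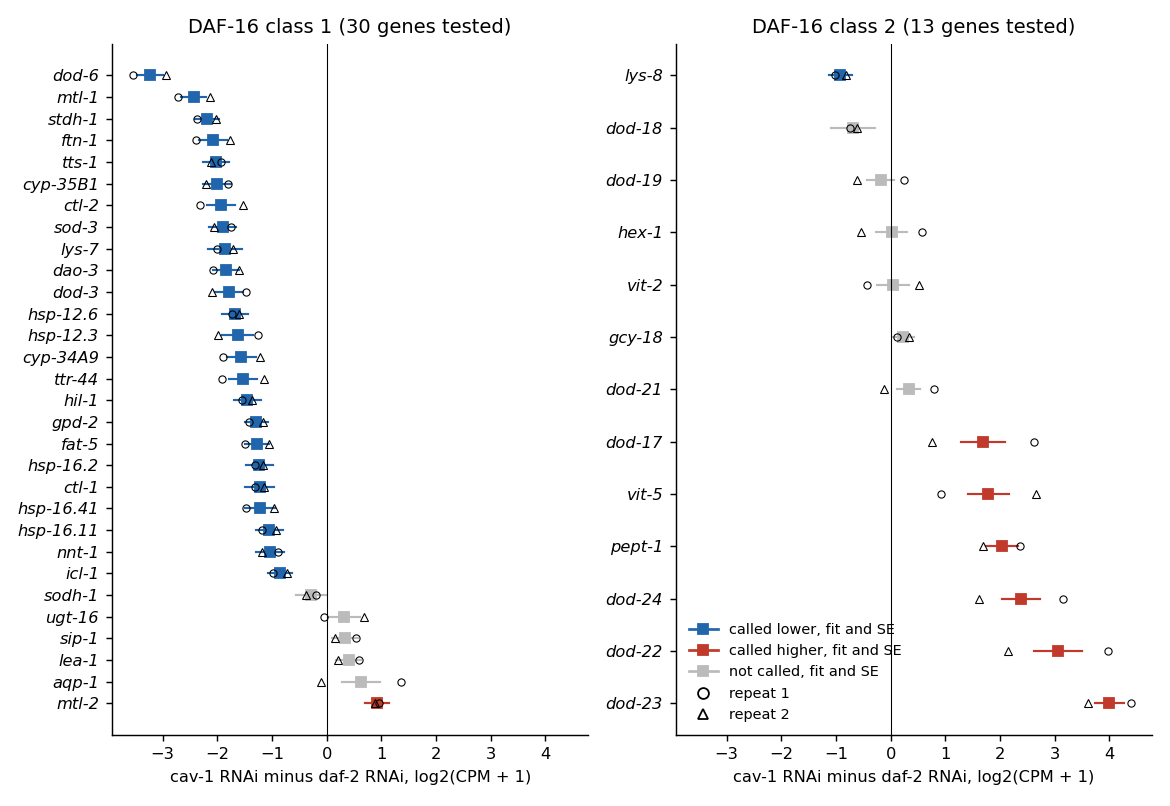
Each square is a gene's difference, cav-1 RNAi minus daf-2 RNAi on the log2(CPM + 1) scale, with its standard error as a bar, and open circles and triangles are the differences within repeats 1 and 2. The left panel holds the 30 tested class 1 genes and the right panel the 13 class 2 genes; the ends are dod-6 at -3.24 and dod-23 at 4.003.

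Calls in the pathway between the receptor and DAF-16 included the targeted gene. Of 26 tested genes of the insulin/IGF-1 pathway 3 were higher under cav-1 RNAi, among them daf-2 itself and hcf-1, which encodes a nuclear repressor of DAF-16, and 0 were lower, with a median of 0.34. Over all tested genes 10.6% were called and 3.74% were higher. hcf-1 stood at 78.95 and 196 CPM in the daf-2 RNAi libraries and at 227 and 272 CPM in the cav-1 RNAi libraries (0.99, SE 0.28, limma adjusted p = 0.048). daf-16 itself, looked at after its value was seen, stood at 96.6 and 159 CPM in the daf-2 RNAi libraries and at 93.8 and 179 CPM in the cav-1 RNAi libraries, and was not called (0.07, SE 0.22, limma adjusted p = 0.838). Among 26 tested insulin-like peptide genes, which encode the candidate ligands of the receptor, 6 were lower and 1 was higher, with a median of -0.42. With the length trend removed 4 were lower and 3 higher, with a median of -0.09. ins-23 stood at 9.57 and 7.53 CPM and 0.711 and 0.505 CPM (-2.57, SE 0.23, limma adjusted p = 0.000265), and ins-12 at 4.75 and 2.96 CPM and 0.7702 and 0.577 CPM (-1.52, SE 0.22). ins-2 went the other way, at 0.718 and 0.0908 CPM and 2.73 and 2.56 CPM (1.41, SE 0.23, limma adjusted p = 0.00473). All of these peptide genes had low levels, at most 6.58 CPM averaged over the 4 libraries. Limma called 0 genes of either list without repeat 1 of cav-1 RNAi, and 1 gene of the pathway list without either daf-2 RNAi library.

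Stress defence genes differed by family, where 6.87% of all tested genes were lower and 3.74% higher. Of 13 tested small heat shock protein genes, which encode chaperones that bind unfolding proteins, 7 were lower and 0 higher (median -1.05). The summed level of the 13 did not follow the median, at 2158 and 3077 CPM in the daf-2 RNAi libraries and 2506 and 3246 CPM in the cav-1 RNAi libraries. F08H9.4, of this family, stood at 7.59 and 4.205 CPM in the daf-2 RNAi libraries and at 0.533 and 0.397 CPM in the cav-1 RNAi libraries (-2.19, SE 0.22, limma adjusted p = 0.000483), and hsp-12.6 at 5.195 and 4.14 CPM and 0.859 and 0.685 CPM (-1.67, SE 0.24). The near-identical copies among the hsp-16 genes make their separate counts uncertain. Of 58 heat shock and chaperone genes outside that family 44 lay above 0 (median 0.33), and 1 was called, as lower: hsp-70, at 95.9 and 49.8 CPM and 31.9 and 19.3 CPM (-1.44, SE 0.24, limma adjusted p = 0.0052). Of 25 superoxide dismutase, catalase and other redox genes 4 were lower, among them ctl-2, sod-3 and ctl-1, and 0 higher, and the median of -0.21 was 0.01 with the length trend removed. With median-of-ratios size factors 8 of the 58 chaperone genes were called higher. Genes for small heat shock proteins had 0 limma calls without repeat 1 of cav-1 RNAi, with a median of -0.753.

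Among enzymes that modify foreign and fat-soluble compounds, more were called lower than higher in each family, as among all tested genes (6.87% lower, 3.74% higher). The higher share was 3.33% for UDP-glucuronosyltransferase genes and 4.76% for cytochrome P450 genes, near that of all tested genes. Of 60 tested UDP-glucuronosyltransferase genes 18 were lower and 2 higher, of 63 cytochrome P450 genes 12 were lower and 3 higher, and of 42 glutathione S-transferase genes 6 were lower and 0 higher, with medians of -0.49, -0.30 and -0.27. ugt-27 stood at 24.9 and 6.62 CPM in the daf-2 RNAi libraries and at 4.24 and 1.23 CPM in the cav-1 RNAi libraries (-2.04, SE 0.28, limma adjusted p = 0.00241). cyp-35B1, a P450 gene that is also a DAF-16 class 1 gene, stood at 33.8 and 35.3 CPM and 8.95 and 6.89 CPM (-2.005, SE 0.26). gst-4, a reporter gene of the oxidative stress response, stood at 200.2 and 153 CPM and 90.05 and 77.4 CPM (-1.06, SE 0.25, limma adjusted p = 0.0246). The P450 genes did not move as a block: cyp-35A3 stood at 5.81 and 5.08 CPM and 41.5 and 35.5 CPM (2.61, SE 0.25), against 39.03 and 30.9 CPM on empty vector, and cyp-35A4 was higher by 1.14 (SE 0.23). Likewise ugt-53 was higher, at 1.06 and 1.78 CPM and 6.93 and 14.7 CPM (2.22, SE 0.29). In the fit without repeat 1 of cav-1 RNAi, 1 UDP-glucuronosyltransferase gene was called higher and 0 lower, and 1 P450 gene was called in each direction, and 1 glutathione S-transferase gene was called lower. Without daf-2 RNAi repeat 2, 2 glutathione S-transferase genes were called lower, and with the length trend removed 3 were, with a median of -0.08.

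Calls among genes of fat and sugar metabolism were nearly all lower. The shares over all tested genes were 6.87% lower and 3.74% higher. Of 39 tested genes of fatty acid synthesis, storage and binding 9 were lower and 0 higher, and of 58 genes of fatty acid activation and beta-oxidation 13 were lower and 2 higher, with medians of -0.41 and -0.28. lbp-8, which encodes a lysosomal lipid-binding chaperone, stood at 38.2 and 11.16 CPM in the daf-2 RNAi libraries and at 2.78 and 1.37 CPM in the cav-1 RNAi libraries (-2.87, SE 0.31, limma adjusted p = 0.000631). lipl-4, the lysosomal lipase gene, stood at 10.7 and 9.01 CPM and 1.27 and 1.77 CPM (-2.11, SE 0.26, limma adjusted p = 0.0014). dgat-2, for the last step of triglyceride synthesis, stood at 120.3 and 146 CPM and 27.9 and 45.5 CPM (-1.87, SE 0.24). For each of these 3 genes both cav-1 RNAi libraries were below both daf-2 RNAi libraries, as in 893 of the 988 genes called lower. fat-5, a desaturase gene, stood at 802 and 669 CPM and 283 and 322 CPM (-1.28, SE 0.22), and acs-17, an acyl-CoA synthetase gene, at 76.8 and 157 CPM and 30.04 and 30.3 CPM (-1.83, SE 0.28). Of 31 genes of the glyoxylate cycle, gluconeogenesis and alcohol metabolism 8 were lower and 0 higher, among them gpd-2, a glyceraldehyde-3-phosphate dehydrogenase gene (-1.28, SE 0.21), and pck-1, for phosphoenolpyruvate carboxykinase (-1.17, SE 0.21). Both trehalose synthase genes were lower, tps-2 at 149 and 319 CPM and 44.02 and 124 CPM (-1.55, SE 0.22, limma adjusted p = 0.00291) and tps-1 at 31.9 and 64.1 CPM and 10.9 and 33.7 CPM (-1.19, SE 0.26), as was the trehalase gene tre-4 (-1.37, SE 0.27). Leaving out repeat 1 of cav-1 RNAi left 1 call in the synthesis list, 2 in the beta-oxidation list and 0 in the glyoxylate list. Leaving out daf-2 RNAi repeat 1 left 4, 9 and 2 in the same order, 2 of those 9 higher.

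Caveolins sit in membrane domains rich in cholesterol and sphingolipids, and the caveolin, endocytosis and sphingolipid lists had 1 to 3 calls each, where 10.6% of all tested genes were called. Of 11 tested caveolin and stomatin family genes (9.09% called) cav-1 alone was called, and of 28 endocytosis genes 1 was higher, cup-5, a lysosomal mucolipin channel gene (1.06, SE 0.28, limma adjusted p = 0.0375). The endocytosis median was 0.41, with 23 of the 28 genes above 0. Of 27 genes of sphingolipid metabolism 1 (3.7%) was higher and 2 (7.41%) were lower. These shares were near those over all tested genes, 3.74% higher and 6.87% lower. gba-2, a glucocerebrosidase gene, stood at 25.6 and 25.1 CPM on empty vector, at 1.13 and 0.514 CPM in the daf-2 RNAi libraries and at 13.2 and 6.201 CPM in the cav-1 RNAi libraries (2.496, SE 0.30, limma adjusted p = 0.00118). The acid sphingomyelinase gene asm-2 stood at 89.1 and 40.3 CPM and 22.5 and 17.7 CPM (-1.54, SE 0.28), and the acid ceramidase gene asah-1 at 192 and 108 CPM and 50.1 and 71.5 CPM (-1.25, SE 0.33). Among 86 lysosome, V-ATPase and autophagy genes 9 (10.5%) were lower and 5 (5.81%) higher, against 6.87% and 3.74% of all tested genes. Of these, epg-2, an autophagy adaptor gene, stood at 14.4 and 9.77 CPM and 58.2 and 44.8 CPM (2.01, SE 0.24, limma adjusted p = 0.00118), and nuc-1, for a lysosomal DNase, at 65.2 and 48.3 CPM and 177 and 113 CPM (1.32, SE 0.22), while the aspartyl protease gene asp-18 stood at 5.78 and 2.602 CPM and 0.0889 and 0.0721 CPM (-2.19, SE 0.23). Their median lay at -0.01 and changed sign with the scaling. The lysosome list held 1 call in each direction and the sphingolipid list 0 without repeat 1 of cav-1 RNAi, and the lysosome list held 2 higher and 4 lower without daf-2 RNAi repeat 1.

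Immune genes differed by family, where 6.87% of all tested genes were lower and 3.74% higher. Of 41 tested lysozyme, saposin-like and thaumatin-like genes, whose products attack bacteria in the gut, 17 were lower and 1 higher (median -0.64), and of 36 epidermal antimicrobial peptide genes 11 were lower and 0 higher (median -0.61). spp-12, a saposin-like gene, stood at 18.05 and 10.5 CPM in the daf-2 RNAi libraries and at 0.681 and 0.721 CPM in the cav-1 RNAi libraries (-3.12, SE 0.27, limma adjusted p = 0.000191). fipr-26, a peptide gene related to the fungus-induced peptides, stood at 13.4 and 5.14 CPM and 2.01 and 0.433 CPM (-2.18, SE 0.25, limma adjusted p = 0.00103). The exception was ilys-5, an invertebrate-type lysozyme gene, at 208 and 258 CPM on empty vector, 60.5 and 15.9 CPM in the daf-2 RNAi libraries and 268 and 200.4 CPM in the cav-1 RNAi libraries (2.85, SE 0.40, limma adjusted p = 0.00256). Genes with CUB-like domains and other pathogen response genes moved the other way, with 10 of 27 higher and 3 lower (median 0.47); this list shares dod-17, dod-22 and dod-24 with DAF-16 class 2. T24B8.5, a reporter of p38 kinase immunity, stood at 38.9 and 18.5 CPM and 248 and 82.7 CPM (2.37, SE 0.23, limma adjusted p = 0.000366). The lower 3 were irg-2 (-1.73, SE 0.41), zip-10 (-1.25, SE 0.29) and acdh-1 (-1.13, SE 0.30). Of 99 C-type lectin genes 13 (13.1%) were lower and 6 (6.06%) higher. When repeat 1 of cav-1 RNAi was left out, 2 of the lysozyme list were called lower, 0 of the peptide list, 4 of the CUB-like list higher and 2 lectin genes lower, and 6 of the CUB-like list were higher without daf-2 RNAi repeat 1. With each library's trend on transcript length removed, 11 of the lysozyme list and 7 of the peptide list were called lower, and the peptide median was -0.27.

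Among secreted and cuticle genes, 50% of the transthyretin-related and 23.2% of the cuticle collagen genes tested were called lower. Over all tested genes 6.87% were lower and 3.74% higher. Of 46 tested transthyretin-related genes, a nematode family of small secreted proteins, 23 were lower and 1 higher, with a median of -0.92. ttr-26 stood at 153 and 79.7 CPM in the daf-2 RNAi libraries and at 19.5 and 8.11 CPM in the cav-1 RNAi libraries (-3.03, SE 0.24, limma adjusted p = 9.45e-05), and ttr-41 at 379.7 and 242 CPM and 146 and 102 CPM (-1.31, SE 0.21). ttr-50 went the other way, at 39.9 and 10.3 CPM and 88.8 and 30.6 CPM, and its libraries overlapped between treatments although it was higher within each repeat (1.31, SE 0.24, limma adjusted p = 0.00844). Of 112 cuticle collagen genes, which build the worm's outer coat, 26 were lower and 1 higher (median -0.53). col-183 stood at 199 and 18.7 CPM and 14.9 and 2.596 CPM (-3.05, SE 0.37, limma adjusted p = 0.00129), and col-50 at 20.6 and 8.74 CPM and 0.859 and 0.865 CPM (-2.96, SE 0.33). The collagen gene dpy-14, which is needed in the embryo, was the 1 that was higher, at 0.547 and 0.0908 CPM and 8.62 and 2.38 CPM (2.13, SE 0.36, limma adjusted p = 0.00551). Cuticlin genes, which encode another insoluble part of the cuticle, were higher in 5 of 28 and lower in 0, with cutl-16 at 2.12 and 0.756 CPM and 34.95 and 6.09 CPM (2.77, SE 0.37). In 2 families picked after their values were seen, 9 of 14 SCP-like extracellular protein genes and 5 of 12 galectin genes were lower and 0 higher. Transthyretin-related and peptide genes are short, and after removal of the length trend 10 transthyretin-related genes were called lower, with a median of -0.65. Without repeat 1 of cav-1 RNAi there was 1 call among transthyretin-related genes and 0 among collagen and cuticlin genes, and the cuticlin median was 0.02 against 0.20. Without daf-2 RNAi repeat 2, 9 transthyretin-related and 17 collagen genes were called lower.

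F-box genes, which encode the parts of ubiquitin ligases that pick their substrates and form a very large gene family in the worm, split by subfamily. Of 282 tested, 69 (24.5%) were higher and 17 (6.03%) lower under cav-1 RNAi, against 3.74% and 6.87% of all tested genes. The subfamilies were examined after this had been seen: of 95 F-box B genes 55 were higher and 0 lower (median 0.93), of 37 F-box C genes 14 were higher and 3 lower (median 0.46), and of 150 F-box A genes 14 were lower and 0 higher (median -0.37). The lower F-box A genes were 9.33% of that subfamily, against 6.87% of all tested genes. The order of the libraries was not counted over all tested genes, so the next count has no background. In 83 of the 95 F-box B genes both cav-1 RNAi libraries were above both daf-2 RNAi libraries, and in 0 were both below. Their summed level was 364 and 150.3 CPM on empty vector, 121 and 35.7 CPM in the daf-2 RNAi libraries and 286 and 156 CPM in the cav-1 RNAi libraries. The sum was lowest in each repeat under daf-2 RNAi. fbxb-54 stood at 2.91 and 0.424 CPM and 11.26 and 4.18 CPM (1.76, SE 0.25, limma adjusted p = 0.00291), and fbxb-103 at 0.923 and 0.242 CPM and 3.999 and 2.38 CPM (1.41, SE 0.21). On the lower side fbxa-163 stood at 22.3 and 7.74 CPM and 2.103 and 1.298 CPM (-2.42, SE 0.30, limma adjusted p = 0.00135). Of the 55 higher F-box B genes 35 lie on chromosome II, as do 54 of the 95 tested, and all 14 higher F-box C genes lie there, as do 29 of 37. These genes have low levels, with a median of 1.02 CPM among F-box B genes, and many are near copies of each other, so the counts of single members are uncertain. F-box B calls were lost without repeat 1 of cav-1 RNAi and were fewer without daf-2 RNAi repeat 2. They numbered 12 with no filter on low genes and 4 among genes averaging 5 CPM or more. The median of those tested was positive in each of these fits. The choice of the subfamily from these same libraries largely fixed that sign in advance.

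**Figure D4:**
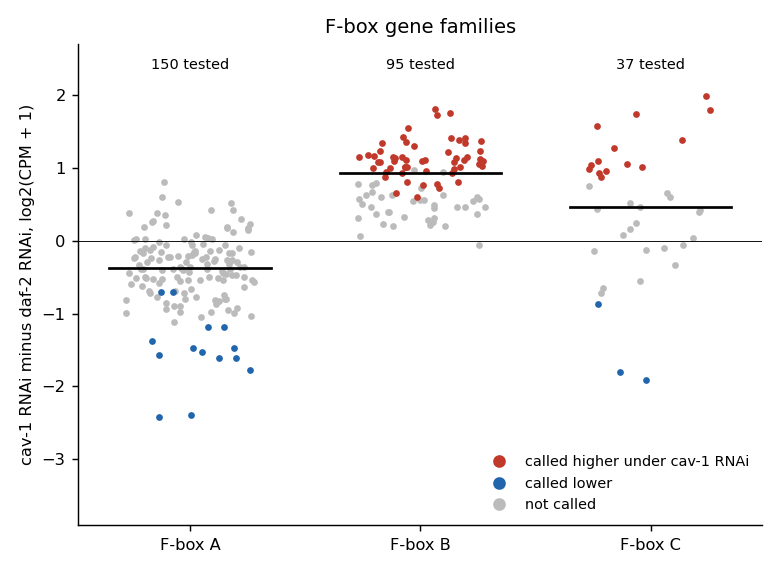
Each point is a tested F-box gene placed by its difference, cav-1 RNAi minus daf-2 RNAi on the log2(CPM + 1) scale, with sideways spread for visibility only and a bar at each subfamily's median. F-box B genes lie almost entirely above 0, with a median of 0.93, and F-box A genes mostly below it, with a median of -0.37.

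Genes switched on in the early embryo were higher under cav-1 RNAi, beside 3.74% higher and 6.87% lower over all tested genes. Of 8 tested early embryo markers 6 were higher and 0 lower (median 0.99), and their summed level was 65.7 and 33.5 CPM on empty vector, 23.99 and 5.87 CPM in the daf-2 RNAi libraries and 48.4 and 33.6 CPM in the cav-1 RNAi libraries. ceh-51, a homeobox gene of the early mesoderm, stood at 2.26 and 0.787 CPM in the daf-2 RNAi libraries and at 7.23 and 5.01 CPM in the cav-1 RNAi libraries (1.54, SE 0.26, limma adjusted p = 0.00591). pes-10, an early zygotic gene, stood at 1.91 and 0.363 CPM and 4.21 and 3.21 CPM (1.23, SE 0.26, limma adjusted p = 0.0144). The other 4 markers, med-1, med-2, end-1 and hlh-27, were too low to test, with at most 9 counts in any library, and hlh-27 was at 0 in all 6. In 3 families picked after their values were seen, 12 of 27 SKN-1-dependent zygotic genes were higher and 2 lower, 5 of 12 T-box genes were higher and 0 lower, and 6 of 20 Skp1-related genes, adaptors that join F-box proteins to the ligase, were higher and 2 lower. The summed level of the SKN-1-dependent genes went the other way. It was 223.6 and 128.4 CPM in the daf-2 RNAi libraries and 149.5 and 114.2 CPM in the cav-1 RNAi libraries. The sums of the T-box and Skp1-related genes were higher under cav-1 RNAi in each repeat. skr-10 belongs to both the embryo list and the Skp1-related family. It stood at 9.54 and 2.66 CPM and 19.9 and 12.08 CPM (1.41, SE 0.29). The homeobox genes ceh-43 (2.39, SE 0.31) and ceh-32 (2.395, SE 0.31) were higher too, with ceh-43 at 4.17 and 1.45 CPM and 29.7 and 10.3 CPM. Of 60 homeobox genes 4 (6.67%) were higher and 1 (1.67%) lower. Of 38 histone genes 4 were higher and 4 lower, and linker histone genes were on both sides: his-24 (1.86, SE 0.33), hil-3 (1.67, SE 0.36) and hil-7 (1.45, SE 0.28) were higher and hil-1 (-1.46, SE 0.25) was lower. With the length trend removed 13 histone genes were called higher and 3 lower. Early embryo calls numbered 0 without repeat 1 of cav-1 RNAi and 0 without daf-2 RNAi repeat 2.

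The germline and somatic tissue markers also shifted between the treatments, by less. For their calls, the shares over all tested genes were 3.74% higher and 6.87% lower. Of 30 oocyte and germline markers 28 had a difference above 0, with a median of 0.61. Called were 2 (6.67%), mex-6 (0.95, SE 0.27) and spn-4 (0.92, SE 0.24), which encode maternal RNA-binding proteins. The summed level of the 30 germline markers ranged from 9018 to 20210 CPM in the daf-2 RNAi libraries and from 13370 to 25220 CPM in the cav-1 RNAi libraries. The repeats thus differed more than the treatments. Of 38 cell cycle and replication genes 36 were above 0 and 5 were called higher, among them zen-4, a kinesin gene of cell division (1.01, SE 0.26), and cyd-1, the cyclin D gene (1.05, SE 0.27), with a median of 0.68. All 22 tested neuron markers were below 0 with 3 called (median -0.69), and 22 of 23 muscle markers were below 0 with 4 called (median -0.68). The summed neuron markers ranged from 408 to 470.4 CPM in the daf-2 RNAi libraries and from 262 to 348 CPM in the cav-1 RNAi libraries, and the muscle markers from 10160 to 11070 CPM and from 6109 to 7182 CPM. Neither sum overlapped between the treatments, and how often such an order arises over all tested genes was not counted. ric-4, a SNAP-25 gene of nerve endings, stood at 19.8 and 21.3 CPM and 5.63 and 9.301 CPM (-1.38, SE 0.37, limma adjusted p = 0.0409), and unc-15, the muscle paramyosin gene, at 1133 and 852 CPM and 636 and 509 CPM (-0.79, SE 0.21, limma adjusted p = 0.0408). Of 103 neuropeptide genes 97 were below 0 and 10 (9.71%) were called lower, with a median of -0.55. Among 15 intestine markers 3 were higher and 2 lower, and among 10 hypodermis markers 1 was higher and 2 lower. The part of these tissue and germline levels in the differences of the other gene groups was not tested. By limma 0 of the germline, cell cycle, neuron, muscle and neuropeptide genes were called without repeat 1 of cav-1 RNAi, and 0 of the germline, cell cycle and muscle genes without daf-2 RNAi repeat 1. With the length trend removed 1 neuropeptide gene was called, and with median-of-ratios size factors 13 germline and 26 cell cycle genes were called higher.

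Several large groups gave no call by limma, where 10.6% of all tested genes were called. Of 81 cytosolic ribosomal protein genes 0 were called, with 2 at an unadjusted p under 0.05; of 70 mitochondrial ribosomal protein genes 0, with 8; of 51 nuclear oxidative phosphorylation genes 0, with 8; and of 12 mitochondrially encoded genes 0, with 2. The ribosomal and oxidative phosphorylation groups had members on both sides of 0. All 12 mitochondrially encoded genes were below 0, with a median of -0.34. Their summed level differed widely between repeats, at 38840 and 4690 CPM on empty vector. It was 36040 and 16520 CPM in the daf-2 RNAi libraries and 26000 and 15040 CPM in the cav-1 RNAi libraries. Proteasome subunits and small RNA genes also had 0 calls, of 33 and 49, but 31 and 43 of them were above 0. At an unadjusted limma p under 0.05 stood 6 proteasome genes, all higher, and 23 small RNA genes, 21 higher and 2 lower. These counts stand beside 5219 of all 14378 tested genes at that threshold. With median-of-ratios size factors 17 of the small RNA genes, which include the machinery that RNA interference itself uses, were called higher. The medians were 0.40 for the proteasome and 0.50 for the small RNA genes.

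**Figure D5:**
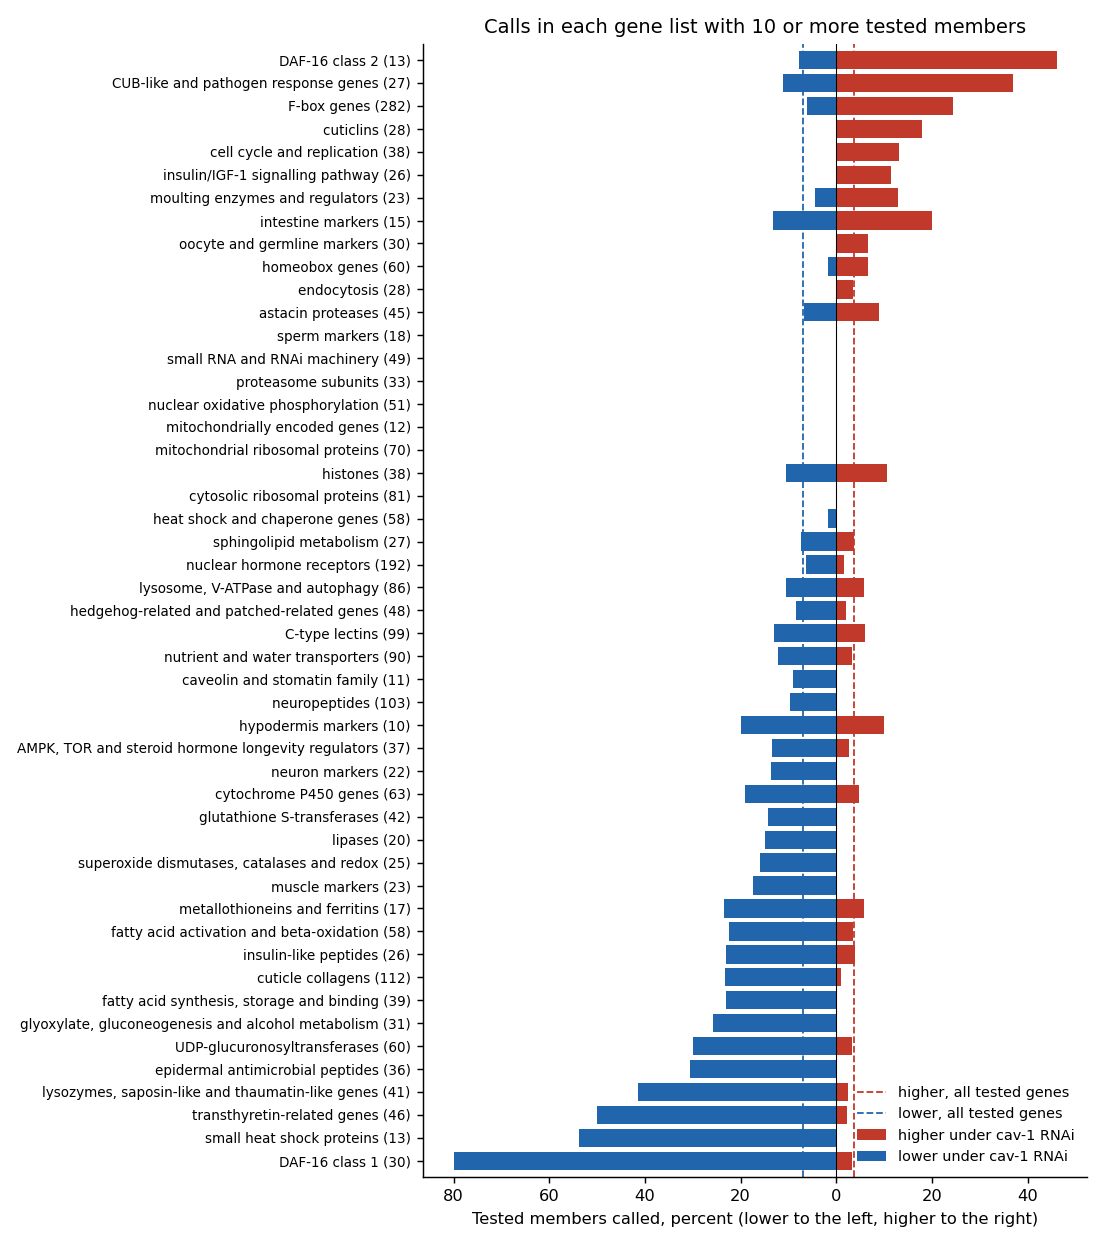
Bars give the percentage of tested members called lower (left) and higher (right) under cav-1 RNAi for gene lists with at least 10 tested members, with that number in brackets. The dashed lines mark the shares over all tested genes, 6.87% lower and 3.74% higher, and of the lists drawn, which leave out the F-box subfamilies, DAF-16 class 1 extends farthest to the left and class 2 farthest to the right.

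Differences varied with transcript length and with chromosome. Across 14270 tested genes with an annotated length, the difference correlated with length at a Spearman rho of 0.298, and at 0.251 and 0.332 within repeats 1 and 2; the genes share the same 4 libraries and are not independent replicates. Of 1111 genes of up to 500 nt 136 were called lower and 13 higher, with a median of -0.305, whereas of 1126 genes of 3000 to 5000 nt 27 were lower and 44 higher, with a median of 0.374. Removing each library's trend on length left 670 genes higher and 1003 lower, with 1223 of the 1526 calls shared. By chromosome, the share called lower was highest on V, at 10.9% of 2853 genes, and the share called higher was highest on II, at 6.44% of 2484 genes. On chromosome I 4.01% of 2293 genes were lower and 3.58% higher.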

How the data were processed

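Per the labels' protocols, 1 µg of RNA from whole worms went into each stranded mRNA library. The authors deposited a table of read counts per gene and library, with 46748 genes, of which 494 (1.06%) had no value and were left out. Per the submitters' processing notes, the genome build was WBcel235 and the tools included DESeq2 1.10.1, Cufflinks 2.2.1, TopHat2 2.0.13, cutadapt 1.7.1 and bcl2fastq 2.15.0.4. The sources used here do not give the counting tool, its strand mode or what it did with reads shared between genes. The authors' fold changes, p-values and 6 columns of normalised counts were not used.

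Library totals of all 6 samples ran from 25474328 to 32886440, and 10 counts correspond to 0.304 to 0.393 CPM. Intervals and floors were not computed, and the errors given do not separate counting error from other spread. A gene entered the test with 15 or more counts over all libraries and, in 2 or more of them, a level of 0.348 CPM, which is what 10 counts give at the median depth. These 14378 genes hold 99.96% of the counts. Counts were scaled by TMM factors from those genes (trims of 0.3 and 0.05; factors 0.922 to 1.04), and log2(CPM + 1) went into limma-trend (limma 3.58.1 under R 4.3.3). The fit used all 6 libraries with the repeat as an additive block, 2-sided p-values, Benjamini-Hochberg adjustment over all tested genes and a threshold of 0.05. Its residual degrees of freedom were 2 and its prior 8.69. A count-based test was planned for columns that pass as counts. It was not run because the columns hold entries without a value.

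The design text pairs the samples, since each repeat held 1 sample of every kind. Over 14378 genes, libraries of one repeat deviated together from their groups: the correlation was 0.812 between the RNAi treatments, and with empty vector it was 0.891 (daf-2 RNAi) and 0.807 (cav-1 RNAi). The whole fit was also run on simulated counts with 10% variation, 200 changed genes and repeat effects shared in full by all groups. With the block it recovered 64, 50 and 35 of 66 genes changed 4-fold, 2-fold and 1.5-fold, and 5 of its 154 calls were false. Without the block it recovered 0. Because the simulated repeat effects were shared in full, this run cannot tell how the block performs on the real libraries.

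The comparison, the gene lists and the use of the block were chosen with earlier results of these data known. The genes named were the targets daf-2 and cav-1 with cav-2, then the 12 largest called differences in each direction at a mean of at least 5 CPM with the same direction in both repeats, and in each list the 3 called members with the smallest p in each direction, or the member with the smallest p where none was called. Genes against the direction of their list were also named, after their values were seen. One gene that this rule selects is not reported here. Gene coordinates are from the WBcel235 annotation, and 15626 symbols, 5 of them turned into dates in the table, were looked up by gene identifier. No sequences are shown. A first fit took the TMM factors from all genes and called 3236 genes. The factors were then changed to those from the tested genes, with 1526 calls, after that first count had been seen, to match an earlier processing of these data. The alternatives for the filter were also recomputed with these factors after their first values had been seen. Alternatives changed the scaling, pseudocount, filter, block, libraries and length correction, 1 at a time.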

Additional observations from a re-analysis of the deposited data

How the results depend on the processing

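The main counts were 538 genes higher and 988 lower. Without the replicate block both were 0 (smallest adjusted p = 0.134). Median-of-ratios size factors gave 1906 higher and 1191 lower, and TMM factors from all genes, added after the data had been seen, gave 1693 and 1543. A mean of at least 5 CPM gave 341 and 751 among 9108 genes, no filter gave 86 and 256 among 21044 genes, and the 4 RNAi libraries alone gave 1159 and 1918. Leaving out 1 library at a time gave 11 to 1824 higher and 59 to 2376 lower, the lowest without cav-1 RNAi repeat 1 and the highest without cav-1 RNAi repeat 2. Total counts alone, pseudocounts of 0.5 and 2 and removal of the length trend kept both counts within 1.5 times. The cause of these shifts was not tested. All 1526 calls kept their direction wherever they were tested, which their choice from these same libraries largely fixed in advance. Of 175 named genes that were called, 175 lost the call without the block, 143 without cav-1 RNAi repeat 1, 46 and 43 without daf-2 RNAi repeats 1 and 2, 87 with no filter and 15 with the length trend removed. The cav-2 difference, not called, ran from -0.55 without cav-1 RNAi repeat 2 to 0.28 without cav-1 RNAi repeat 1 (limma adjusted p = 0.661 for the latter), against -0.10 with all libraries. The count-based alternative was not run. With 2 samples a group, 1 library decides many single calls, and genes near 1 CPM are the least certain.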
